A study of Rattus norvegicus with 45 samples.

Results

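The genes Npy, Sst, Cck, Cartpt, Vip, Trh, Agrp, Hcrt, Pmch and Npy1r were followed in the medial preoptic area of rat pups on postnatal day 10. They are 9 neuropeptide genes of the hypothalamus and 1 receptor gene. They were chosen by name, and all 10 had a row among the 40643 gene rows of both deposited count tables. In 8 of the 10 the counts were high enough to be tested, and Vip and Hcrt fell below the filter on low counts in each sex. Each library holds the 3' tag counts of 1 pup, where each transcript is read at a place close to its 3' end. The dams were dosed from gestation day 8 to birth with corn oil (the vehicle), bisphenol A (BPA) at 50 µg/kg, or BPA mixed in equal parts with bisphenol S and bisphenol F, at 50 or 150 µg/kg in total. In females these groups held 5, 6, 6 and 5 libraries and in males 6, 5, 6 and 6, in that order, from 24 litters of which 21 gave a pup of each sex. The series asked whether the exposures changed expression in each sex and whether maternal licking/grooming or nest attendance altered such effects. Dams entered the study in cage pairs. The labels used here do not tie litters to cages, so p-values leave the cage out of account.

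Neuropeptides are cut from larger precursor proteins, stored in dense-core vesicles and released to act on G protein-coupled receptors. In the hypothalamus most of them are made by cells gathered in particular nuclei. Agrp is made in the arcuate nucleus, Hcrt and Pmch in the lateral hypothalamus, Vip in the suprachiasmatic nucleus and Trh in the paraventricular nucleus among other sites. Npy, Sst, Cck and Cartpt have a wider range. Npy and Sst are also made by interneurons of the cortex and striatum, Cck by many cortical neurons, and Cartpt by cells of the ventral striatum. A precursor transcript that is abundant in a neighbouring region can therefore show what a tissue punch has taken along.

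Totals per library were 4397460 to 7223180 counts for females, against 4747461 to 6740045 for males. Markers of the preoptic area were present for the steroid receptors, with Esr1 at a mean of 13.5 CPM (tags of a gene scaled to the total of its library) and Pgr at 10.8, and for Calcr at 23.2. The preoptic peptide gene Gal was at 0.914 CPM, and the transcription factor gene Hmx3 was at 0 in all 45 libraries. The annotation is not named, so here and below a gene at 0 in all libraries may be one whose transcript end was not counted. Striatal genes were abundant, with Pde10a at a mean of 492 CPM and Drd2 at 66.6. The male corn oil library of replicate 2 stood apart from the other males by 17.4 CPM of Xist, the transcript of the inactive X, against at most 5.12 in other males and at least 132 in females. Its Y-linked Eif2s3y, at 24.8 CPM, lay within the male range of 21.7 to 30.8. Leaving it out moved no difference of these genes from corn oil by over 1 SE other than those of Cck, which are given with and without it.

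The 10 genes covered nearly 3 orders of level. Values are CPM, scaled by the TMM method for library composition. Tags are counted once per transcript end and are not divided by length, so the order below is one of tags and carries any difference in how well each end is captured. Sst, the precursor of the inhibitory peptide somatostatin, was highest at 138 ± 17.2 CPM (SD, n = 45 libraries). Cartpt, the precursor of the CART peptides that restrain feeding, followed at 101 ± 47.9. Npy, whose neuropeptide Y stimulates feeding, was at 31.9 ± 7.88. Cartpt overlapped both neighbours in this order, from 15.9 to 189 CPM, while Sst (108 to 199.9) and Npy (16.3 to 45.8) shared no level.

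The remaining precursors were lower. Cck, the precursor of the satiety peptide cholecystokinin, had a median of 8.32 CPM, and 1 library at 88.5 lifted its mean to 11.4. Npy1r, the Y1 receptor for neuropeptide Y, was at 7.87 ± 2.45 CPM. Trh, the precursor of thyrotropin-releasing hormone, was at 4.48 ± 0.94 CPM, and Agrp, the precursor of an inverse agonist at melanocortin receptors, at 4.28 ± 1.11. These 2 means differed by less than the SD of either gene. Pmch, the precursor of melanin-concentrating hormone, was at 2.41 ± 0.97 CPM. Vip, the precursor of vasoactive intestinal peptide, had 123 counts over the 45 libraries, 0 to 9 in each. Hcrt, the precursor of the orexins, had 41 counts in all, 0 to 4 in each, and none in 18 libraries, where a count of 0 allows up to 3 counts by counting error alone. Counts this low limit which differences between groups could be shown at this depth, and Vip summed to 8 to 23 counts per group and Hcrt to 4 to 9. In fits without the filter, neither passed in any comparison. The Vip value with the lowest p against corn oil was 1.17 ± 0.63 on the log2 scale, in females of the 50 µg/kg mixture (edgeR adjusted p = 0.882), and that of Hcrt was 0.74 ± 0.78, for the 150 µg/kg mixture in males (edgeR adjusted p = 0.933).

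**Figure D1:**
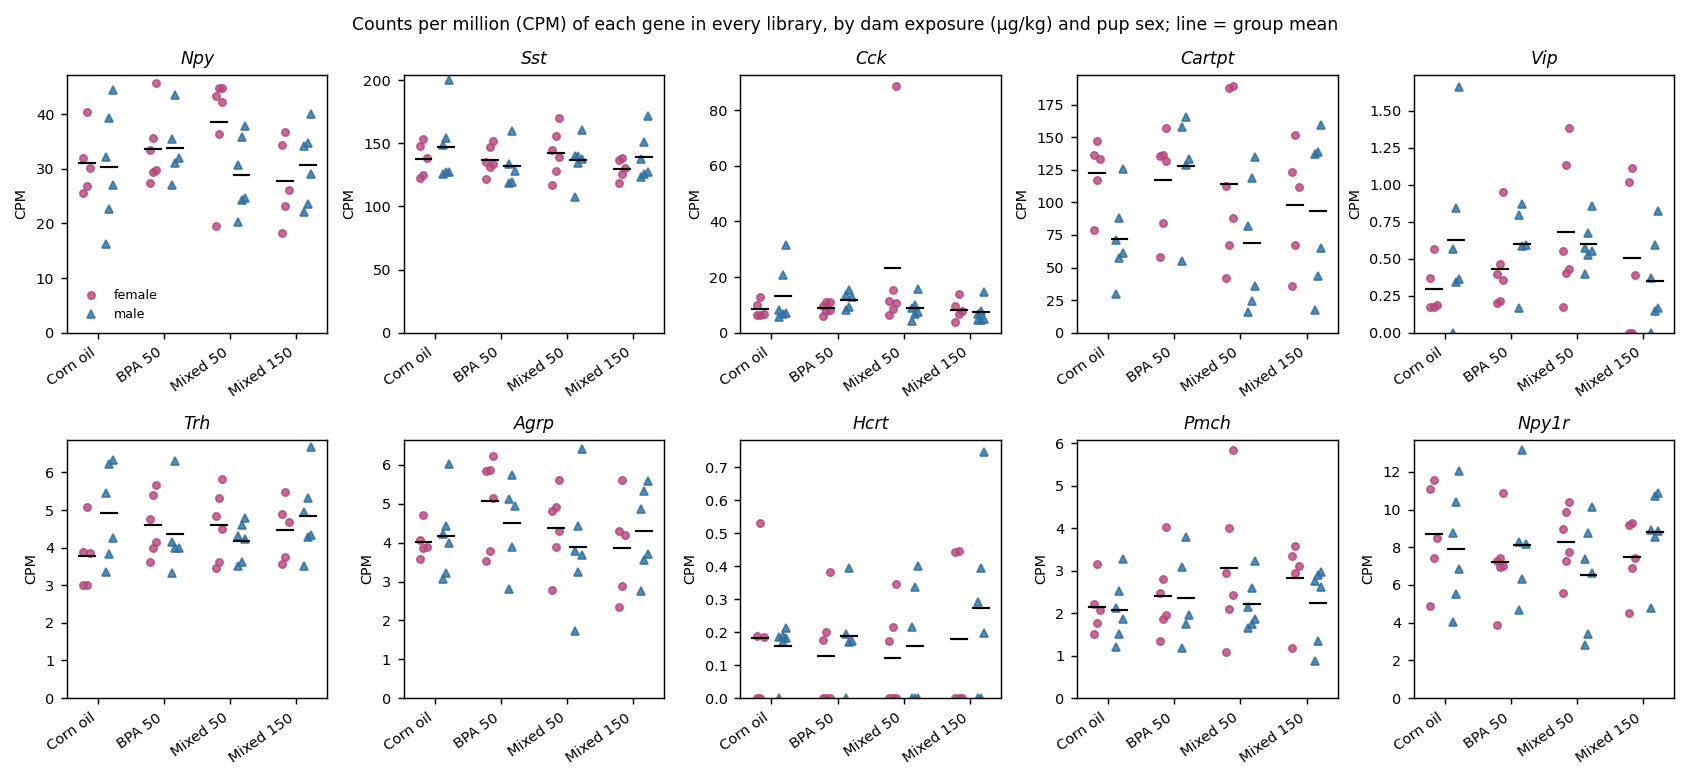
CPM of each of the 10 genes (vertical axis, linear, from 0) in every library, by dam exposure in µg/kg (horizontal axis), with 1 point per pup and a line at the group mean. Sst is steady near 138 CPM, Cartpt ranges from 15.9 to 189, and 1 female library of the 50 µg/kg mixture stands at 88.5 CPM of Cck.

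The genes differed widely in their spread between pups. Over the 45 libraries the coefficient of variation was 12.5% for Sst, 21.0% for Trh, 24.7% for Npy, 25.9% for Agrp, 31.1% for Npy1r, 40.3% for Pmch, 47.5% for Cartpt and 112% for Cck. The highest Cartpt library held 11.9 times the CPM of the lowest, against 1.86 times for Sst. Within exposure groups, the biological coefficient of variation of Cartpt, the part of the spread beyond counting error, was 0.44 in females and 0.63 in males. These were 4.57 and 5.85 times the values that genes of like abundance had, and 99.6% of genes tested in females and 99.8% in males had a lower ratio. For Cck the ratios were 4.63 and 3.30. For Sst they were 0.99 and 1.28, and 71.8% of genes in females and 86.5% in males had a lower ratio. For Trh they were 0.53 and 0.80, with 7.45% and 52.0% of genes lower. Both genes were thus far below Cartpt and Cck, while the ratio of Sst lay above that of most genes.

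The promoter windows of Cartpt, Npy and Npy1r, which varied together in males and in part in females as given below, are shown with that of Sst. Its coefficient of variation was the lowest of the tested genes. Each runs from 250 bases before to 50 bases after the gene's start, 5′ to 3′ on the gene's strand, from RefSeq on assembly GRCr8. Capitals mark the cyclic AMP response element, TGACGTCA, through which CREB acts on the somatostatin gene, or its shorter core, TGACG. The core was also searched on the other strand, where it reads as CGTCA. Windows for 8 of the 10 genes matched by symbol, and Cck and Pmch had none.
Cartpt, chr2:32991186-32991485, minus strand: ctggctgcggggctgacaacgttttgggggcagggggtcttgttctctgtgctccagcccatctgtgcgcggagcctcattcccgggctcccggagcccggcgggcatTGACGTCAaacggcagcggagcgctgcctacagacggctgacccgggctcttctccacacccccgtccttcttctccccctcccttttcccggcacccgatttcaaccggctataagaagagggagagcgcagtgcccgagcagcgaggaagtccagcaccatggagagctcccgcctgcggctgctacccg
Npy, chr4:80211861-80212160, plus strand: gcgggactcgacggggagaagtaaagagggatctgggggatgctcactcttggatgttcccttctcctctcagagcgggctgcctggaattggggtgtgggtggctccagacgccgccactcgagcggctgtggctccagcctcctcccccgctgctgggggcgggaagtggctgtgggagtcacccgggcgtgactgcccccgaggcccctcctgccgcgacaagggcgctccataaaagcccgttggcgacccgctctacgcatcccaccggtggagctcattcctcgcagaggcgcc
Npy1r, chr16:27813338-27813637, minus strand: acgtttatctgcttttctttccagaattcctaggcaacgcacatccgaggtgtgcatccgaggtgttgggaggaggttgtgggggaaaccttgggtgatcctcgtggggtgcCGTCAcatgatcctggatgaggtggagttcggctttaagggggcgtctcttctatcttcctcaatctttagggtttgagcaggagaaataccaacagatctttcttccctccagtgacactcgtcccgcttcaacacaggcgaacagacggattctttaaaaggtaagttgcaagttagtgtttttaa
Sst, chr11:90461296-90461595, plus strand: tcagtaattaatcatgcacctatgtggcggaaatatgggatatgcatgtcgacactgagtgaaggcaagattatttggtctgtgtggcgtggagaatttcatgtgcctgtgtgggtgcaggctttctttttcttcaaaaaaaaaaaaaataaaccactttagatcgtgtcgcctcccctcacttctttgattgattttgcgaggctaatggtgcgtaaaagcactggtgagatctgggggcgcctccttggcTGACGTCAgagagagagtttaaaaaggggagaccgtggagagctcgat
The full element began at base 109 of the Cartpt window and at base 253 of the Sst window, counted from the 5′ end. The Cartpt site thus lay before the annotated start and the Sst site after it. Whether that start is the one used in this tissue was not tested. The letters of the full element were in 1.83% of 33469 rat promoter windows of that length. The core alone was in the Npy1r window at base 113, and in those of Vip and Trh. The core, on either strand and inside or outside a full element, was in 21.2% of all windows. The letters of either were in no window of Npy, Agrp or Hcrt. A match describes the sequence and shows no binding, and Sst and the more variable Cartpt both held the full element.

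Cartpt varied widely between pups of the same exposure, the most of the 8 genes in males and second to Cck in females. After corn oil, the 5 female libraries held 78.6, 117, 133, 136 and 147 CPM, and the 6 male libraries ran from 29.98 to 126 with a median of 66.0. After BPA, females ran from 58.1 to 157 with a median of 134, and the 5 males held 55.3, 128, 134, 158 and 165. In males, 4 of the 5 BPA libraries lay above every corn oil library, and the 5th lay inside their range.
After the 50 µg/kg mixture, Cartpt ran from 41.8 to 189 CPM in females (median 100.2) and from 15.9 to 134 in males (median 58.8). After the 150 µg/kg mixture the 5 females held 36.1, 67.6, 111, 123 and 152, and males ran from 17.6 to 159 with a median of 101. Both mixture groups of either sex reached above and below the corn oil libraries of that sex. In BPA males the log2 difference from corn oil was 0.82 ± 0.55 (SE, n = 5 and 6, 95% interval -0.32 to 1.97, edgeR adjusted p = 0.565). The other 5 differences of Cartpt from corn oil lay between -0.31 and 0.36, with SE from 0.38 to 0.53.

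Npy was more even. After corn oil, the 5 female libraries held 25.6, 26.9, 30.2, 32.0 and 40.3 CPM, and male libraries ran from 16.3 to 44.5 with a median of 29.5. After BPA, females ran from 27.4 to 45.8 (median 31.6), and the 5 males held 27.1, 31.0, 31.9, 35.4 and 43.5. The groups overlapped over most of their range. After the 50 µg/kg mixture, females ran from 19.6 to 44.7 with a median of 42.7, and 4 of these 6 libraries lay above every corn oil female. Males of that dose ran from 20.2 to 37.8 (median 27.7). After the 150 µg/kg mixture, the 5 females held 18.3, 23.1, 26.1, 34.3 and 36.7, and males ran from 22.1 to 40.1 (median 31.7). The female difference at 50 µg/kg was 0.30 ± 0.20 on the log2 scale (SE, n = 6 and 5, interval -0.12 to 0.73, edgeR adjusted p = 0.992). Between the mixture doses, females of 150 µg/kg were lower than those of 50 µg/kg by a log2 difference of -0.46 ± 0.21 (unadjusted p = 0.0390, edgeR adjusted p = 0.987), with 0 of 18354 genes called in that comparison.

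The receptor gene Npy1r followed a similar range in every group. Female corn oil libraries held 4.90, 7.41, 8.49, 11.1 and 11.6 CPM, and male corn oil libraries ran from 4.01 to 12.04 with a median of 7.78. After BPA, females ran from 3.89 to 10.9 (median 7.12), and the 5 males held 4.68, 6.32, 8.17, 8.29 and 13.2. All of these groups covered much the same span. After the 50 µg/kg mixture, Npy1r ran from 5.55 to 10.4 in females (median 8.36) and from 2.79 to 10.1 in males (median 7.02). After the 150 µg/kg mixture the 5 females held 4.51, 6.91, 7.44, 9.17 and 9.29, and males ran from 4.79 to 10.9 (median 8.90). The library at 2.79 CPM was the lowest of all 45 for Npy1r and for Cartpt. The 6 differences of Npy1r from corn oil lay between -0.28 ± 0.23, in BPA females, and 0.12 ± 0.29, for the 150 µg/kg mixture in males.

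In Cck, single libraries set the group values. Female libraries after corn oil held 6.41, 6.48, 6.72, 9.83 and 12.8 CPM, and those after BPA ran from 5.91 to 10.96 with a median of 8.95. After the 50 µg/kg mixture females ran from 6.25 to 88.5, with a median of 11, and the library below the highest was at 15.3. After the 150 µg/kg mixture the 5 females held 3.92, 6.62, 7.74, 9.60 and 13.8. The library at 88.5 CPM, replicate 3, held 511 counts and was alone in standing apart. The log2 difference of the 50 µg/kg mixture from corn oil in females was 1.48 ± 0.60 (SE, n = 6 and 5, interval 0.22 to 2.74, unadjusted p = 0.0234, edgeR adjusted p = 0.971), and without that library it was 0.31 ± 0.27 (interval -0.26 to 0.87).
Its difference from BPA at equal total dose was 1.40 ± 0.57 with the library (adjusted p = 1.0) and 0.22 ± 0.26 without it. Against it, the 150 µg/kg mixture was at -1.51 ± 0.61 (adjusted p = 0.987) with the library and -0.34 ± 0.28 without.

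In males, Cck ran from 5.80 to 31.6 CPM after corn oil with a median of 7.55. BPA males held 8.10, 9.39, 12.7, 13.4 and 15.3. Males of the 50 µg/kg mixture ran from 4.30 to 15.6 (median 8.09) and those of 150 µg/kg from 4.74 to 14.8 (median 5.87). The corn oil library at 31.6 CPM was replicate 2, the one with the most Xist among males, and replicate 4 followed at 20.9. The difference of the 150 µg/kg mixture from corn oil was -0.85 ± 0.42 on the log2 scale (SE, n = 6 and 6, unadjusted p = 0.0592, edgeR adjusted p = 0.992), and -0.38 ± 0.37 without replicate 2. That of the 50 µg/kg mixture was -0.58 ± 0.42 with it and -0.11 ± 0.36 without. For BPA the value turned from -0.16 ± 0.42 to 0.31 ± 0.37.

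These Cck libraries were also rich in transcripts of cortical excitatory neurons. The summed CPM of 6 cortical genes, among them Slc17a7, Tbr1, Neurod6 and Neurod2, was 131 in the female library with 88.5 CPM of Cck, against 10.8 to 23.7 in the other 5 of its group and 9.19 to 26.2 after corn oil. It was 68.8 in male corn oil replicate 2 and 55.5 in replicate 4, against 9.82 to 11.6 in the other 4 of that group. The vesicular glutamate transporter gene Slc17a7 ranged from 0 to 37.2 CPM over the 45 libraries. In the comparison of the 50 µg/kg mixture with corn oil in females, 5 of 5 tested genes of this list were above zero, with a median log2 difference of 2.33 against 0.01 over all genes tested. None of them was called, and 4 had an unadjusted p under 0.05. Without the library at 131 CPM, the 4 genes of the list that could still be tested had a median of 0.26, and none had an unadjusted p under 0.05. The part of cortical tissue in the Cck values was not tested.

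**Figure D2:**
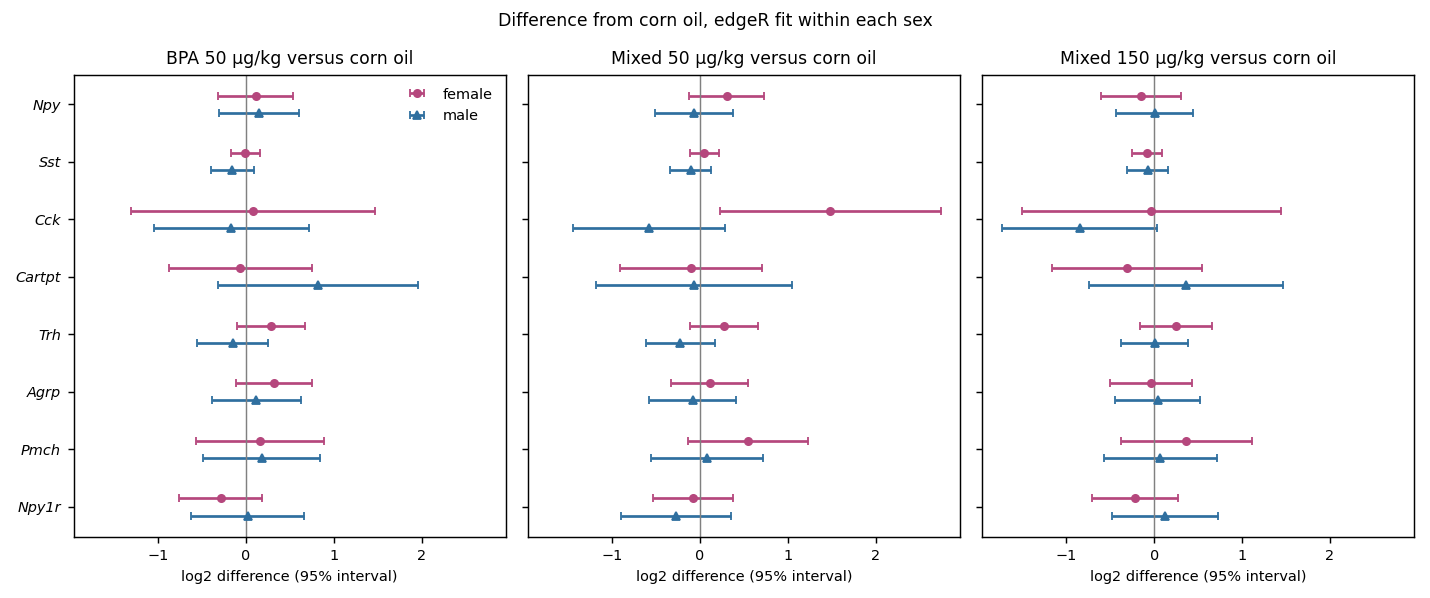
Log2 difference of each exposure from corn oil (horizontal axis) for the 8 tested genes, females as circles and males as triangles, with bars for the 95% interval of the edgeR fit within each sex. The intervals of Sst are the narrowest, within 0.40 of zero, and the Cck interval of females of the 50 µg/kg mixture is the single one that leaves out zero.

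Sst had the narrowest limits of the 8 genes. Sst held 123 to 154 CPM in female corn oil libraries and 126 to 199.9 in male ones. Its differences from corn oil in females were -0.01 ± 0.08 for BPA, 0.05 ± 0.08 for the 50 µg/kg and -0.08 ± 0.08 for the 150 µg/kg mixture, with intervals that stayed between -0.25 and 0.21. In males they were -0.15 ± 0.12, -0.11 ± 0.11 and -0.08 ± 0.11, between -0.40 and 0.16. For Trh the 5 female corn oil libraries held 3.01, 3.02, 3.86, 3.89 and 5.09 CPM, and the exposed females ran from 3.47 to 5.82. The groups overlapped, with 2 of the corn oil females below every exposed female. The female differences of Trh were 0.25 to 0.29 with SE of 0.19 or 0.20 against the same corn oil libraries, and the male ones were -0.15, -0.23 and 0.005. Agrp in females was at 5.07 ± 1.15 CPM after BPA (SD, n = 6) against 4.02 ± 0.42 after corn oil, 0.32 ± 0.21 higher on the log2 scale (95% interval from -0.11 to 0.75, edgeR adjusted p = 1.0). In males its 3 differences lay between -0.08 and 0.12. No difference of these 3 genes passed the test.

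Over all exposure comparisons none of the genes was called. Of the 8 tested genes, 0 had an edgeR adjusted p under 0.05 in any of the 6 comparisons with corn oil, where 0% of genes were called in either sex. At an unadjusted p under 0.05 there was 1 of the 48 values, Cck in females of the 50 µg/kg mixture, where 4.85% of all genes lay below that limit. DESeq2 called none either, and 2 of its 48 values had an unadjusted p under 0.05, both of Cck. The DESeq2 p was 0.00737 in females of the 50 µg/kg and 0.0392 for the 150 µg/kg mixture in males. Both comparisons held the library with the highest Cck of that sex. The share of all genes below that limit was not taken for DESeq2. Medians over the 8 log2 differences lay between -0.10 and 0.19, beside medians of -0.001 to 0.006 over all genes tested.

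BPA was also set against each mixture. The 50 µg/kg mixture matches it in total dose, and the 150 µg/kg mixture in the dose of BPA itself. BPA, bisphenol S and bisphenol F each carry a pair of phenol rings joined by a different bridge. In males the log2 value of Cartpt after the 50 µg/kg mixture minus that after BPA was -0.89 ± 0.55 (95% interval from -2.04 to 0.25, edgeR adjusted p = 0.497). For the 150 µg/kg mixture it was -0.46 ± 0.54 (from -1.60 to 0.67). In females the same differences were -0.04 ± 0.37 and -0.25 ± 0.39. For Npy they were 0.19 ± 0.19 and -0.27 ± 0.21 in females and -0.22 ± 0.22 and -0.15 ± 0.22 in males. For Sst the intervals ran from -0.24 to 0.32 over both doses and both sexes. The differences of Trh from BPA lay between -0.08 and 0.15, those of Agrp between -0.36 and -0.08, those of Pmch between -0.11 and 0.38 and those of Npy1r between -0.29 and 0.20. For Cck in males they were -0.41 ± 0.44 and -0.68 ± 0.45. Among 6 such comparisons, mixture doses against each other included, 0 of the 8 genes and 0% of all genes were called. The interval of Cartpt is too wide to say that the compounds acted alike on it.

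Npy moved with Cartpt and with Npy1r from pup to pup in both sexes, and Cartpt moved with Npy1r in males. The relation was computed within each sex after the mean of each exposure was taken off, with log2 CPM and 100000 permutations inside exposure groups. In males r was 0.809 for Npy with Npy1r (rho 0.799, permutation p adjusted over 28 pairs 0.00028), 0.738 for Npy with Cartpt (rho 0.751, adjusted p = 0.0007) and 0.715 for Cartpt with Npy1r (rho 0.687, adjusted p = 0.00439). Without the 2 libraries farthest from the median these were 0.761, 0.718 and 0.586, and the last no longer passed (adjusted p = 0.0756). In females r was 0.749 for Npy with Cartpt (adjusted permutation p = 0.00728), where rho was 0.625 and did not pass (adjusted p = 0.0657), and 0.622 for Npy with Npy1r (rho 0.689, adjusted p = 0.0276). Without the 2 farthest libraries these were 0.558 and 0.634, and neither passed, with adjusted p of 0.0868 for both. For Cartpt with Npy1r in females r was 0.267 (rho 0.238, adjusted permutation p = 0.579). The other pairs, 26 in females with this one and 25 in males, did not pass. All values here share the library and its depth.

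Cartpt and Npy moved with striatal genes and against those of the preoptic area in both sexes, and Npy1r did so in males. The striatum list held 11 genes of the medium spiny neurons, among them Pde10a, Drd1, Drd2, Adora2a, Ppp1r1b and Penk, and its summed level ran from 445 to 1859 CPM. With the mean log2 level of the 10 tested genes of that list, Cartpt had r = 0.870 in females and 0.899 in males (adjusted p over 168 relations 0.00084 and 0.000187). Npy had r = 0.875 and 0.885 (adjusted p = 0.00056 and 0.000187), and Npy1r 0.742 in males (adjusted p = 0.0006). In females Npy1r had r = 0.469 with it, which did not pass (adjusted p = 0.228), while its rho of 0.626 did (adjusted p = 0.0451). With the 11 tested genes of the preoptic list, Cartpt had r = -0.875 and -0.872 and Npy -0.709 and -0.804, all of which passed. Npy1r had r = -0.686 with it in males, which passed, and -0.370 in females, which did not (adjusted permutation p = 0.410). Cartpt also ran against a list of general neuron genes (r = -0.81 in females and -0.76 in males), so its pattern was not one of the preoptic list alone. Spearman's coefficients and the values without the 2 farthest libraries kept these signs, and the smallest p that the permutations can give is 1e-05.

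The pups with the least Cartpt show this in single libraries. The male of the 50 µg/kg mixture with 15.9 CPM of Cartpt had a striatal sum of 599 CPM and a preoptic sum of 178. The male of the 150 µg/kg mixture with 17.6 CPM had sums of 549.8 (striatal) and 181 (preoptic). At the other end, the female of the 50 µg/kg mixture with 189 CPM of Cartpt had sums of 1636 and 109. Cartpt was thus low where striatal genes were low and preoptic genes high. In bulk tissue, fewer cells of a type and less RNA per cell cannot be told apart, and the part of the punch in these levels was not tested.

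**Figure D3:**
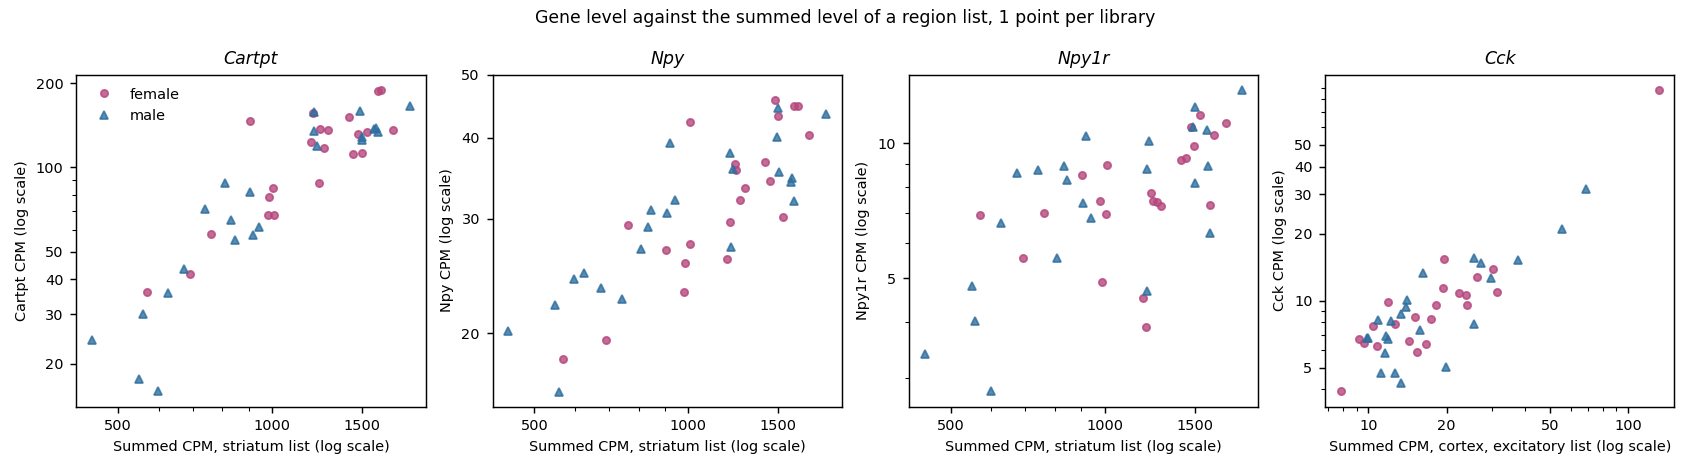
Level of Cartpt, Npy and Npy1r against the summed level of the 11 striatal genes, and of Cck against that of 6 cortical genes (CPM, log scale on both axes), 1 point per library, females as circles and males as triangles. Libraries with a higher striatal sum, over its range of 445 to 1859 CPM, hold more Cartpt, and the library at 88.5 CPM of Cck has the highest cortical sum, 131.

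The exposure values of Cartpt in males moved with these region genes. In BPA males the striatal sum had a median of 1502 CPM against 864 after corn oil, and 10 of the 10 tested striatal genes were above zero with a median log2 difference of 0.57. These genes share each punch, so they are not independent. In that comparison 0 of 18426 genes were called, and 11.3% had an unadjusted edgeR p under 0.05. Other lists shifted too, with medians of 132 against 88.8 CPM for ependyma and tanycytes and 71.5 against 159 for basal forebrain cholinergic cells. For astrocytes they were 890 and 892. With the mean of the striatum list as a covariate, the Cartpt difference of BPA males was -0.004 ± 0.27 in place of 0.82 ± 0.55, and that of the 150 µg/kg mixture was -0.20 ± 0.26 in place of 0.36 ± 0.53. The SE fell to a median of 0.52 of its former size for Cartpt, 0.51 for Npy and 0.80 for Npy1r, and was 0.95 to 1.06 of it for the other 5. In BPA males the Npy difference turned from 0.15 ± 0.22 to -0.15 ± 0.11, and that of Npy1r from 0.02 ± 0.31 to -0.34 ± 0.22. The Npy difference in females of the 50 µg/kg mixture was 0.30 ± 0.20 without the covariate and, with it, 0.28 ± 0.11 (unadjusted p = 0.0144, edgeR adjusted p = 0.652). The covariate holds genes that the exposures could change too, so its value is a description.

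Cck moved with another list. Its r with the 5 tested genes of the cortical list was 0.913 in females (rho 0.773, adjusted p = 0.000336) and 0.924 in males (rho 0.915, adjusted p = 0.000187). Without the 2 farthest libraries r was 0.796 and 0.891, and both passed. With the striatum list its r was 0.12 and -0.04. In females Cck also passed with the choroid plexus list (r = 0.474, adjusted p = 0.0412), which did not pass by rho (adjusted p = 0.141) or without the 2 farthest libraries (adjusted p = 0.139).
Of the 168 relations of genes and lists, 16 passed in females and 33 in males, and they belonged to Npy, Cck, Cartpt and Npy1r. Not all of them are named here, so the relations above are not shown to be particular to the lists named. Sst, Trh, Agrp and Pmch had no list past the threshold, with r between -0.59 and 0.49. In males Npy and Cartpt also ran with a lateral hypothalamus list (r = 0.812 and 0.863), of which the 3 genes tested include Pdyn, itself a striatal gene.

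**Figure D4:**
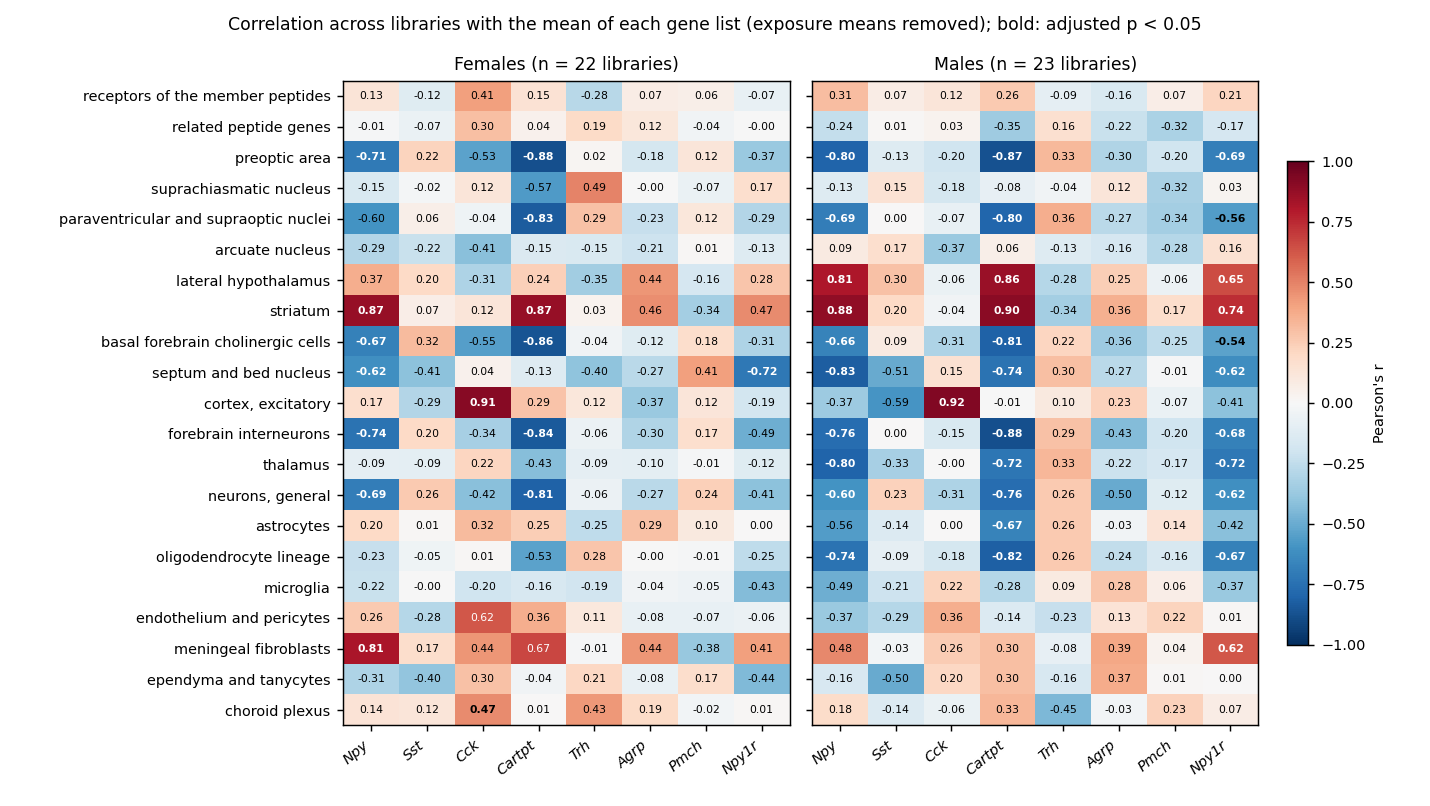
Pearson's r across libraries, exposure means removed, between each of the 8 tested genes (columns) and the mean level of each of 21 gene lists (rows), in females (n = 22, left) and males (n = 23, right). Bold marks an adjusted permutation p under 0.05. Npy and Cartpt are positive with the striatum list (0.87 to 0.90) and negative with the preoptic list, Cck is positive with the cortical list (0.91 and 0.92), and the columns of Sst, Trh, Agrp and Pmch hold no bold value.

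The genes with the pattern nearest to each member were also named. Likeness was the lower of the r values in the 2 sexes, over 22 and 23 libraries, across 18136 genes that share library and depth. Among the closest to Cartpt were Caln1 (0.934) and Gucy1a1 (0.931), and 320 genes had a likeness over 0.7. Closest to Npy were Ngef (0.894), Pcp4l1 (0.885) and Nell2 (0.883), with 264 over that limit, and closest to Npy1r were Ano6 (0.779), Hpse (0.776) and Vav3 (0.766), with 24. Among the closest to Cck were Neurod2 (0.860) and Slc17a7 (0.806), both in the cortical list, with 5 genes over the limit. For Sst the closest was Tcaf1 (0.680), for Agrp Slc6a20a (0.587) and for Trh Rrp7a (0.484), and 0 genes were over the limit for these 3.

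Pmch had a single gene over the limit, Parpbp (0.861), with the next at 0.470. In the RefSeq annotation of GRCr8, Pmch lies within Parpbp, a gene of DNA repair. Parpbp had 14 to 59 counts per library and Pmch 5 to 42, and the count of Pmch was at or below that of Parpbp in 45 of 45 libraries. The strand setting of the counting is not given in the sources used here, so reads of these genes cannot be told apart, and a Pmch level is uncertain in every library. Its differences from corn oil were between 0.07 and 0.55 with SE of 0.31 to 0.36, the highest of them in females of the 50 µg/kg mixture (0.55 ± 0.33, edgeR adjusted p = 0.992). Without replicate 5 of that group, the library with 42 counts, this value was 0.23. Agrp overlaps Ripor1, which had 232 to 409 counts per library and an r with Agrp of 0.15 in females and 0.35 in males. Trh overlaps LOC134486818, a long non-coding RNA not analysed here. For Agrp and Trh too, reads of overlapping genes cannot be told apart.

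**Figure D5:**
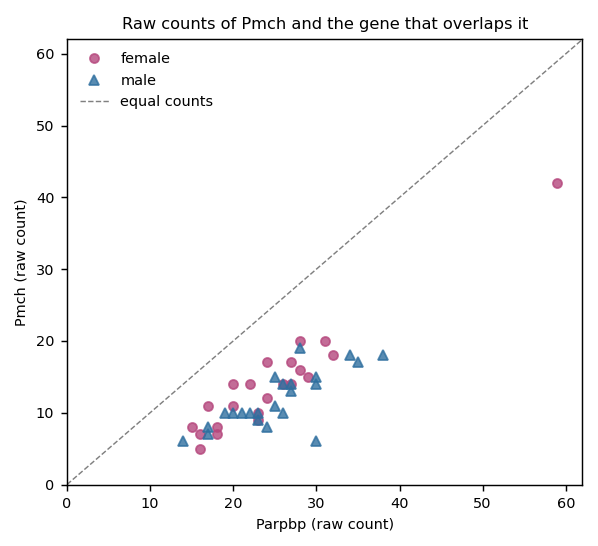
Raw counts of Pmch (vertical axis) against those of Parpbp, the gene that it lies within (horizontal axis), 1 point per library, females as circles and males as triangles, with a dashed line at equal counts. All 45 points lie below the line, and the female library with 59 counts of Parpbp has the most Pmch, 42.

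In the lists for the nuclei that make Vip, Hcrt, Agrp and Trh, some genes were low and others high. How narrowly each is expressed in the brain was not tested. Oxt and Avp, the peptides of the paraventricular and supraoptic nuclei, were at 0.098 and 0.977 CPM on average, and Otp, a transcription factor gene of neuroendocrine neurons, was at 0 in all libraries. Sim1 of the same nuclei was at 0.225. Pomc of the arcuate nucleus was at 1.80 with 1 library at 16.3, and Kiss1 at 0.044. Six6, a gene of the suprachiasmatic nucleus, was at 0.028. The suprachiasmatic list also held Rora at 364 CPM and Prok2 at 16.4, the paraventricular list Pou3f2 at 49.3 and the arcuate list Isl1 at 70.8. In the lateral hypothalamus list Pdyn was at 40.98 CPM and Lhx9 at 1.21. Vip and Hcrt had means of 0.515 and 0.172 CPM, while Trh and Agrp had 16 to 46 and 8 to 38 counts in each library.

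The receptors through which these peptides act were listed from their known ligands. Of 20 receptor genes, 13 were tested in females and 14 in males. The highest were Adcyap1r1 at a mean of 61.1 CPM, a receptor for PACAP with lower affinity for vasoactive intestinal peptide, Hcrtr2 at 28.9, an orexin receptor, Mchr1 at 18.7, the receptor for melanin-concentrating hormone, and Trhr at 9.80. Npy4r and Mc3r were at 0 in all libraries. None was called in any comparison with corn oil. In females of the 50 µg/kg mixture, 3 of 13 had an unadjusted p under 0.05, where 4.85% of all genes did, and they were Cckbr, a cholecystokinin receptor (0.51 ± 0.19), Sstr3, a somatostatin receptor (0.49 ± 0.23), and Hcrtr2 (-0.31 ± 0.11), with edgeR adjusted p of 0.971 to 0.992. In BPA males it was 3 of 14, where 11.3% of all genes did, the neuropeptide Y receptor Npy2r (-0.76 ± 0.29), Hcrtr1 (-1.17 ± 0.44) and Vipr1 (0.86 ± 0.36), with edgeR adjusted p of 0.380 to 0.408. These 6 were named after their values were seen. The female comparison held the library with 88.5 CPM of Cck and a cortical sum of 131. Its 3 receptor values are not given without that library. Of 14 related peptide genes, 4 were tested in females and 5 in males, none was called, and Nucb2, the precursor of nesfatin, was highest at 39.7 CPM.

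No gene differed by sex past the threshold. The female minus male log2 difference over all 45 libraries was 0.07 ± 0.11 for Npy, -0.02 ± 0.05 for Sst, 0.13 ± 0.27 for Cck and 0.36 ± 0.24 for Cartpt. It was -0.08 ± 0.09 for Trh, 0.03 ± 0.12 for Agrp, 0.24 ± 0.17 for Pmch and 0.01 ± 0.14 for Npy1r. The Cck value was -0.16 without the female library at 88.5 CPM, and -0.04 ± 0.17 without male corn oil replicate 2 as well. Both sexes were pooled in a voom fit with the litter as a random block. In it 0 of the 8 genes and 0% of all genes were called against corn oil for any exposure. None passed for sex in an edgeR fit of all 45 libraries without a litter term, where 0.0946% of 19026 genes did. Whether an exposure acted differently by sex was tested in that edgeR fit as the female effect minus the male effect. For Cck and the 50 µg/kg mixture that was 2.06 ± 0.73 (interval 0.58 to 3.53, unadjusted p = 0.00751, adjusted p = 0.959), and 0.41 ± 0.47 without the female library at 88.5 CPM and male corn oil replicate 2. For Cartpt and BPA it was -0.88 ± 0.67 (adjusted p = 0.787). None of the 24 such values passed, and 0% of genes did. Over 21 litters with a pup of each sex, brother and sister were related most for Agrp (r = 0.439, rho 0.500, adjusted permutation p = 0.194) and Npy (r = 0.433, rho 0.478, adjusted p = 0.194), and no gene of the 8 passed. For Cck r was -0.167.

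Maternal care was set against the genes as a slope per SD of licking/grooming or nest attendance over postnatal days 1 to 5, with exposure in the model. None of the 8 genes and 0% of all genes passed for either measure in either sex. The female Trh slope on licking/grooming was 0.14 ± 0.07 (SE, n = 22, unadjusted p = 0.0484, edgeR adjusted p = 1.0), that of Agrp -0.14 ± 0.07 (unadjusted p = 0.0682) and that of Cck 0.44 ± 0.22 (unadjusted p = 0.0644). Without the female library at 88.5 CPM, the Cck slope was 0.16 ± 0.10. In males the slopes of these 3 genes were 0.01, -0.06 and -0.16. On nest attendance all 16 slopes had intervals that held zero.

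Whether care altered the exposure differences was tested by the slopes of the 3 exposures against the corn oil slope, jointly. In females the lowest values were those of Pmch (unadjusted p = 0.0209, edgeR adjusted p = 0.782) and Npy (unadjusted p = 0.0287, edgeR adjusted p = 0.786), where 6.31% of all genes lay under 0.05 and 0% were called. The Npy slope minus the corn oil slope was 0.31 ± 0.17 after the 50 µg/kg mixture, -0.32 ± 0.17 after the 150 µg/kg mixture and -0.08 ± 0.19 after BPA. For Npy1r it was -0.50 ± 0.23 after BPA, -0.15 ± 0.20 after the 50 µg/kg and -0.49 ± 0.21 after the 150 µg/kg mixture (edgeR joint test, adjusted p = 0.800). For Pmch, whose reads cannot be told from those of Parpbp, the 50 µg/kg mixture was at -0.69 ± 0.28. Replicate 5 of that group came from its litter with the least licking/grooming. It held the lowest Npy of the group, 19.6 CPM with the next at 36.4, and the most Pmch, 42 counts. The Npy and Pmch slopes of that group are not given without it and may rest on this library. Over all alternatives the lowest joint adjusted p in females was 0.301 (edgeR, without replicate 6 of that group). In males the lowest joint p of the 8 genes was 0.183 (Npy).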

How the data were processed

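RNA from frozen punches of the medial preoptic area was extracted with a kit for fixed tissue and sequenced by 3' Tag-seq, per the labels' protocols. The authors deposited raw counts per gene in 1 table per sex, each marked as having outlying libraries removed. The submitters' processing notes name cutadapt 1.18, STAR 2.7.3a, SAMtools 1.10, bedtools 2.27.1 and mRatBN7.2, while no source used here names the annotation, the strand setting or how duplicates were treated.

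Genes were kept by edgeR's filterByExpr (minimum count 10, minimum total 15), which left 18354 in females, 18426 in males and 19026 over both. Counts were scaled by TMM and tested within each sex by edgeR 4.0.16's robust quasi-likelihood test (R 4.3.3), all 4 exposures in 1 fit, with Benjamini-Hochberg adjustment over all genes at 0.05. Exposures over both sexes together were fitted by limma 3.58.1's voom with the litter as a random block (correlation 0.0953). The sex difference and the exposure effect by sex were tested by edgeR over 8 groups of sex and exposure, without the litter. Correlations used log2 CPM with a prior count of 2 and Python 3.11.15 with scipy 1.17.1. The tests were tried on simulated data first. Alternatives were DESeq2 1.42.0, other scaling, no filter, a striatum covariate, 2-group fits, blocks and leaving out each library.

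The genes and the 21 lists were chosen with earlier results of these data known. The rule for named genes took all 10 members (Vip and Hcrt by counts and by fits without the filter), with up to 4 genes of another list by level or adjusted p, and the 3 genes of nearest pattern, of which some are not reported here. The design gave 45 pairs of members, and 28 remained because Vip and Hcrt fell below the filter. Replicate numbers did not pair samples, since same-numbered libraries had a median correlation of 0.015 in females and 0.005 in males. Each pup of a sex came from its own litter, so p-values within a sex measure the spread between litters. The tests of sex and of exposure by sex counted the sister and brother of 21 litters as independent. Intervals cover 95%.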

Additional observations from a re-analysis of the deposited data

Results flagged for a closer look

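Of 80 groups of 5 or 6 libraries (10 genes in 8 groups), 7 held a library whose gap to its nearest neighbour was large against the range of its group by Dixon's limit, which chance gives in about 1 group in 20. Cck in females of the 50 µg/kg mixture was at 88.5 CPM in replicate 3, with the next at 15.3, and replicate 6 of the males of the higher mixture dose, 150 µg/kg, held 14.8, with the next at 7.84. Npy in females of the 50 µg/kg mixture was at 19.6 in replicate 5, with the next at 36.4. Pmch in females of the 150 µg/kg mixture was at 1.19 in replicate 1, with the next at 2.94. Trh in BPA males was at 6.32 in replicate 1, with the next at 4.15. Vip in BPA females was at 0.952 in replicate 3, with the next at 0.462, and Hcrt in corn oil males was at 0 in replicate 1, with the next at 0.171, both of which rest on a few counts.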

How the results depend on the processing

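No member was called in any comparison under any alternative, leaving out each library in turn included, where the counts of called members ran from 0 to 0. The lowest adjusted p over all of them was 0.282, for males compared with each other across exposures without replicate 4 of the 50 µg/kg mixture. With the replicate number as a block 0 members were called, though the numbers do not pair the samples, and only 5 of 22 females and 6 of 23 males correlated best with their own number. Of 2592 differences from corn oil recomputed, 109 changed sign, none of them called, and 13 moved by more than 1 SE, in Cartpt, Npy and Npy1r with the striatum covariate and in Cck without its highest libraries or with litter mates summed. The fit without those 2 Cck libraries was chosen after seeing the data. Of the pairs of members in females, 2 passed by Pearson's r, 1 by Spearman's rho and 0 without the 2 farthest libraries, and the cause was not tested. Depth limits Vip and Hcrt, which were tested only without the filter, and Pmch, with 5 to 42 counts per library.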
